A study of Homo sapiens with 6 samples.

Results

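Transcripts of the 37 genes of the mitochondrial genome were followed in RPE-1, a telomerase-immortalised line from human retinal pigment epithelium, as the cells left a block at the start of S phase with the checkpoint kinase ATR active or inhibited. The members were all rows of the deposited count table whose Ensembl gene ID belongs to a gene with an MT- symbol, which gave 37 of 60252 IDs. They comprise 13 mRNAs, 2 ribosomal RNAs and 22 tRNAs. The heavy strand encodes 28 of them (12 mRNAs, both rRNAs and 14 tRNAs), and the light strand encodes 9 (MT-ND6 and 8 tRNAs).

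All conditions used this 1 line and differed in treatment and time. The condition G1_S_arrested held cells after 24 h in 2 mM thymidine that were not released. For 4h_ATRi and 4h_DMSO, cells were washed 3 times after the same block, received the ATR inhibitor AZ20 at 2 µM or its solvent DMSO from 1 h after the wash, and were collected after another 3 h, in late S phase. For 6h_ATRi and 6h_DMSO the inhibitor or solvent stayed for 5 h, into G2, and Cycling cells were asynchronous, without thymidine. The design names 3 independent experiments. The leading letters A, B and C of the count columns are taken here as these experiments, which the column names do not state. For 6h_ATRi the experiment lettered C is not analysed here. This left 2 libraries of 6h_ATRi and 3 of each other condition, and values of a condition are given in the order A, B, C. The question of the series was which genes ATR controls at the transcript level.

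Mitochondrial DNA is transcribed from both strands into long precursors that run through many genes, and tRNA sequences between the genes mark where the precursors are cut. The mRNAs encode subunits of the respiratory chain (complex I, complex III and complex IV) and of ATP synthase, the rRNAs build the mitochondrial ribosome, and the tRNAs serve translation in the organelle. Heavy-strand mRNAs are polyadenylated, the MT-CO1 mRNA ends in a stretch complementary to MT-TS1, and the MT-ND5 mRNA extends over the region opposite MT-ND6.

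The tRNA genes that carried nearly all tRNA counts, and MT-TT, which changed on release, are shown as their coding-sense sequences (5′ to 3′, from the GENCODE release 29 transcripts of GRCh38), with the anticodon in capitals.
MT-TS1: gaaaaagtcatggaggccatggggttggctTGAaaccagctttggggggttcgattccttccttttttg
MT-TP: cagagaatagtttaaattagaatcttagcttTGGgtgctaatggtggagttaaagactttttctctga
MT-TY: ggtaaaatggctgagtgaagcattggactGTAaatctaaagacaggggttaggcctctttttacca
MT-TT: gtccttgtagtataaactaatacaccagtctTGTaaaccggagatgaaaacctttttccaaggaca
MT-TS1 (69 bases, serine), MT-TP (68 bases, proline) and MT-TY (66 bases, tyrosine) lie on the light strand, and MT-TT (66 bases, threonine) lies on the heavy strand next to MT-TP. Whether counts on these short genes came from mature tRNAs or from longer RNA that runs through them was not tested.

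Library totals ran from 1758747 to 2357561 counts, of which the 37 genes took 3.16% to 5.79%, with 95% Wilson intervals of at most 0.032 percentage points on either side. Levels are CPM, a gene's count scaled to the total count of its library. Of 12 markers of retinal pigment epithelium, BEST1 (12655 ± 1398 CPM), PMEL (319 ± 45.3 CPM) and SERPINF1 (19.7 ± 6.09 CPM) had the highest levels (SD, n = 17). BEST1 overlaps the abundant gene FTH1 on the opposite strand. Opposite-strand neighbours of the other markers are not given here, and their counts may be uncertain as to the gene as well. MITF, TYR, TYRP1 and OTX2 averaged 4.67, 1.32, 4.13 and 2.12 CPM, and RPE65, RLBP1, TTR, RDH5 and LRAT had 2, 7, 1, 23 and 17 counts over all 17 libraries. The epithelial keratins KRT8, KRT18 and KRT7 averaged 3778, 279 and 10.7 CPM. Of markers of other cell types, CD3E, ACTC1 and MYH7 were at 0 in every library, ALB had 1 count, VWF 3, PTPRC 12, RBFOX3 49 and CRX 406 counts.

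The strand on which reads were counted is not given in the sources used here, and the kit keeps strand. In the nuclear genome, features opposite to abundant genes held the larger count: VIM had 1095 ± 133 CPM against 31324 ± 3614 CPM on VIM-AS1, the feature opposite to it (SD, n = 17). Counts of this nuclear pair lay mainly on the feature opposite to the abundant gene. Mitochondrial rows counted in the same way would hold mainly RNA of the strand opposite to their gene, which was not tested. Each value below is a count on the named gene's row, and heavy and light name the annotated strand of that gene. Differences below are those of rows, and the RNA behind them may be that of the other strand.

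Of the 37 genes, 25 passed the filter on low counts and were tested: all 13 mRNAs, both rRNAs and 10 tRNAs. No count was found in any library for 10 tRNA genes, 9 of them on the heavy strand (MT-TV, MT-TL1, MT-TW, MT-TK, MT-TG, MT-TR, MT-TH, MT-TS2 and MT-TL2) and 1 on the light strand (MT-TN). A count of 0 allows up to 1.27 to 1.71 CPM, taking 3 counts per library, and covers counting error only. MT-TF with 5 counts and MT-TA with 63 counts over all libraries did not pass the filter.

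The mRNAs took 92.2% of the counts on the 37 genes, the tRNAs 6.35% and the rRNAs 1.46%. MT-ND6, the light-strand subunit of complex I, averaged 12038.5 ± 2821 CPM (SD, n = 17), the highest mean of the 37, and MT-ND5, the heavy-strand gene next to it, averaged 11082 ± 3348 CPM. With the complex I gene MT-ND4 at 4837 ± 2383 CPM they held 65.8% of all mitochondrial counts. MT-CYB of complex III followed with 2809.6 ± 972 CPM.

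Among the genes of complex IV, MT-CO3 averaged 1728 ± 513 CPM, MT-CO2 1414 ± 672 CPM and MT-CO1 849 ± 195 CPM (SD, n = 17 in each case). The other complex I genes were at 861 ± 301 CPM for MT-ND3, 823 ± 217 CPM for MT-ND2, 729 ± 216 CPM for MT-ND1 and 444 ± 256 CPM for MT-ND4L. The ATP synthase genes MT-ATP6 and MT-ATP8 had 1268 ± 645 and 183 ± 68.2 CPM. MT-ATP8 and MT-ND4L were the lowest mRNAs, and both overlap the next gene on the same strand, MT-ATP8 by 46 bases with MT-ATP6 and MT-ND4L by 7 bases with MT-ND4.

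Scaled by gene length, the order changed. MT-TS1 was first at 26607 ± 4310 CPM per kilobase, ahead of MT-ND6 at 22930.5 ± 5374, and these values overlapped over the 17 libraries. MT-TP followed with 8090.1 ± 2159 CPM per kilobase, then MT-ND5 with 6116 ± 1848 and MT-ND4 with 3510.0 ± 1729. Heavy-strand mRNAs spanned an 11.1-fold range on this scale, with MT-CO1, the catalytic subunit of complex IV, lowest at 551 ± 126 CPM per kilobase. MT-TS1, which lies opposite the 3′ end of the MT-CO1 transcript, stood 48.3-fold above MT-CO1.

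**Figure D1:**
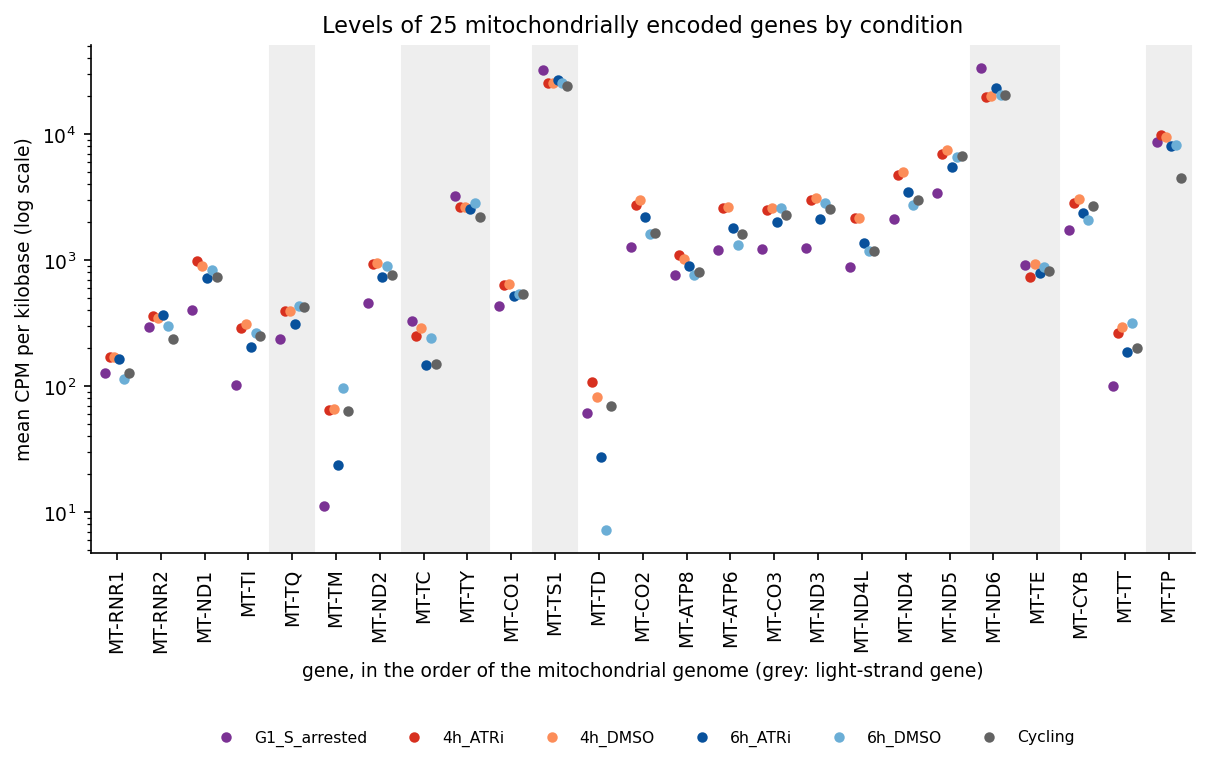
Mean level in CPM per kilobase (log axis) of the 25 tested genes in genome order, 1 point per condition; grey bands mark light-strand genes. MT-TS1 and MT-ND6 stand above the heavy-strand mRNAs in each condition, and the G1_S_arrested point lies lowest of the 6 for MT-ND1, MT-ND2, MT-ND3, MT-CO3 and MT-ND5 and highest for MT-ND6.

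Light-strand genes held most of the tRNA counts: 92013 counts lay on the 8 light-strand tRNA genes against 1387 on the 14 heavy-strand ones. Per library the light-strand share of tRNA counts was 96.8% to 99.5%. Among the other tested light-strand tRNAs, MT-TE (glutamate) averaged 58.5 ± 8.57 CPM, MT-TQ (glutamine) 26.6 ± 6.19 CPM and MT-TC (cysteine) 15.8 ± 5.76 CPM (SD, n = 17). The tested heavy-strand tRNAs were MT-TI (isoleucine) at 16.4 ± 9.30 CPM, MT-TT at 15.2 ± 6.01, MT-TD (aspartate) at 4.17 ± 4.14 and MT-TM (methionine) at 3.81 ± 2.48. MT-TI and MT-TQ share 3 bases on opposite strands, and MT-TC and MT-TY share 1 base on the same strand.

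The rRNAs were low and differed between the experiments. MT-RNR1, the RNA of the small mitochondrial ribosomal subunit, had 71.6, 239 and 52.2 CPM in G1_S_arrested, 70.5, 291 and 129.7 in 4h_ATRi, 64.9, 301 and 121 in 4h_DMSO, 70.8 and 242 in 6h_ATRi, 42.2, 236 and 48.2 in 6h_DMSO, and 73.8, 259 and 32.0 in Cycling cells. Experiment B was the highest in every condition, at 236 to 301 CPM against 32.0 to 129.7 CPM in A and C. MT-RNR2, the RNA of the large subunit, was likewise higher in B, with 565 to 781 CPM in B against 251 to 531 CPM in A and C, and averaged 489.7 ± 193 CPM over all libraries (SD, n = 17). No mature rRNA carries a long poly(A) tail, and both genes lie at the start of the heavy-strand precursor.

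Among the mRNAs MT-ATP8 was lower in experiment B without overlap, at 89.8 to 129.9 CPM against 154 to 310.3 CPM in A and C. The ID ENSG00000226958, which the name table pairs with no symbol, took 7.04% to 11.5% of all counts in B and 1.30% to 4.48% in A and C. The ratio of the mean in B to that in A and C was 0.478 for MT-ATP6 to 0.952 for MT-ND6 over the other mRNAs, whose values overlapped. The part of this ID in those levels was not tested. Every condition has a library of B, and directions within each experiment are given below.

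Cells released for 4 h without inhibitor had lower CPM on the MT-ND6 row and higher CPM on the rows of MT-ND1 and MT-ND2 than arrested cells. The comparison follows cells from the block into late S phase. MT-ND6 had 11013, 10168 and 10598 CPM in 4h_DMSO, against 18398, 16044 and 18398 CPM in G1_S_arrested. The groups did not overlap, and MT-ND6 was lower in 4h_DMSO in 3 of 3 experiments (log2 -0.71 ± 0.17 (SE), adjusted p = 0.0361; 1.92e-14 with the experiment as a replicate block). Log2 fold changes and SE below come from the fit without the block, also beside p-values with the block. The authors' values and fits with libraries left out are named as such. In bulk libraries a difference in RNA per cell and one in the share of cells that hold the RNA cannot be told apart.

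MT-ND1, a membrane subunit of complex I encoded next to the rRNAs, had 926, 728 and 924 CPM in 4h_DMSO, against 486, 293 and 376 CPM in G1_S_arrested. It rose by log2 1.18 ± 0.21 (adjusted p = 0.00569). MT-ND2, a further membrane subunit of complex I, had 1054, 775 and 1113 CPM in 4h_DMSO, against 493, 407 and 534 CPM in G1_S_arrested, a rise of log2 1.07 ± 0.20 (adjusted p = 0.00576). For both genes the lowest 4h_DMSO library, that of B, lay above the highest arrested library. The heavy-strand tRNA MT-TT had 18.7, 14.5 and 24.8 CPM in 4h_DMSO, against 9.67, 5.85 and 4.48 CPM in G1_S_arrested (log2 1.58 ± 0.35, adjusted p = 0.0246).

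Of the 25 genes tested, 4 were called (3 higher and 1 lower) in 4h_DMSO against G1_S_arrested, where 0.74% of all 13510 tested features were called (0.415% higher and 0.326% lower). With the replicate block 13 were called, 11 higher and 2 lower, where 4.77% of all features were (2.25% higher and 2.52% lower). Groups did not overlap for 9 genes that were higher and 2 that were lower, beside 6.34% and 8.68% of all features. The 10 heavy-strand genes called with the block were all higher: MT-ND1, MT-ND2, MT-ND3, MT-ND5, MT-CO1, MT-CO3, MT-RNR2, MT-TI, MT-TT and MT-TM. Of the light-strand genes, MT-TQ was higher and MT-ND6 and MT-TS1 were lower.

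MT-ND5 had 15166, 9204 and 15944 CPM in 4h_DMSO, against 7407, 4401 and 6598 CPM in G1_S_arrested. These groups did not overlap either (log2 1.16 ± 0.28, adjusted p = 0.0666; 2.74e-28 with the block). MT-ND3, also of complex I, had 1087, 720.5 and 1399 CPM in 4h_DMSO, against 497, 284 and 502 in G1_S_arrested (log2 1.34 ± 0.32, adjusted p = 0.0743; 3.36e-27 with the block). MT-CO3 of complex IV had 2245, 1488 and 2352 CPM in 4h_DMSO, against 1029, 740.3 and 1096 in G1_S_arrested (log2 1.11 ± 0.26, adjusted p = 0.0513; 3.05e-24 with the block). All 3 were higher in 4h_DMSO in each of the 3 experiments, and they passed only with the block. The other heavy-strand mRNAs, MT-ND4 (log2 1.25 ± 0.50), MT-ND4L (log2 1.32 ± 0.54), MT-CO2 (log2 1.28 ± 0.46), MT-ATP6 (log2 1.19 ± 0.58), MT-CYB (log2 0.85 ± 0.41) and MT-ATP8 (log2 0.46 ± 0.51), did not pass with or without it.

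MT-CO1 moved less, with 1079, 724 and 1171 CPM in 4h_DMSO, against 717, 607 and 683 in G1_S_arrested (log2 0.60 ± 0.25, adjusted p = 0.403; 0.0296 with the block). MT-RNR2 had 343, 781 and 505 CPM in 4h_DMSO, against 323, 762 and 288 in G1_S_arrested, with values close to each other in A and B (log2 0.28 ± 0.46, adjusted p = 0.937; 0.0401 with the block). Among tRNAs, MT-TI had 12.8, 14.0 and 37.02 CPM in 4h_DMSO, against 3.98, 9.03 and 7.96 in G1_S_arrested (log2 1.62 ± 0.55; adjusted p = 0.000488 with the block only). MT-TQ, its neighbour on the other strand, had 26.0, 27.5 and 32.1 CPM in 4h_DMSO, against 21.0, 15.9 and 14.4 in G1_S_arrested (log2 0.76 ± 0.24; adjusted p = 0.0332 with the block only). MT-TS1 was lower, as MT-ND6 was, with 2135, 1617 and 1472 CPM in 4h_DMSO, against 2380.1, 1902 and 2414 in G1_S_arrested (log2 -0.33 ± 0.20; adjusted p = 0.007 with the block only).

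Leaving out 1 library at a time, calls of the fit without the block were lost in part. MT-ND1 and MT-ND2 were each called in 5 of 6 fits, with adjusted p = 0.0541 for MT-ND1 without G1_S_arrested C and 0.0703 for MT-ND2 without 4h_DMSO C. MT-ND6 and MT-TT were each called in 2 of 6, with adjusted p up to 0.23 for MT-ND6 without G1_S_arrested A and 0.204 for MT-TT without 4h_DMSO C. With experiment B left out as a whole, MT-ND6 (adjusted p = 2.4e-08), MT-ND1 (6.41e-16), MT-ND2 (8.29e-16) and MT-TT (0.00126) all passed.

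**Figure D2:**
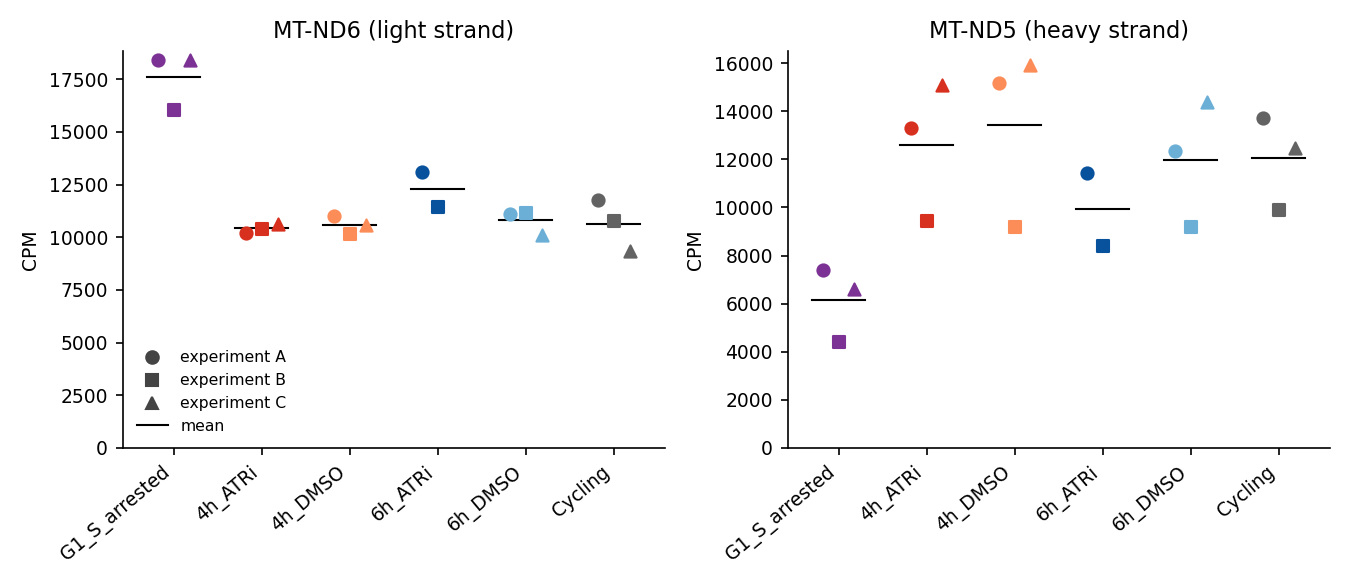
CPM of MT-ND6 (left) and MT-ND5 (right) in each library by condition, with symbols for the experiment and a line at the mean. The 3 G1_S_arrested libraries hold 16044 to 18398 CPM of MT-ND6, above the 9353 to 13112 CPM of the other 14, and 4401 to 7407 CPM of MT-ND5, below the 8414 to 15944 CPM of the other 14.

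Cells collected in G2, at 6 h without inhibitor, had lower CPM on the MT-ND6 row than arrested cells. They had higher CPM on the rows of MT-ND1, MT-ND2, MT-CO3, MT-TT and MT-TM. MT-ND6 had 11121, 11148 and 10109.8 CPM in 6h_DMSO, against the same arrested libraries at 16044 to 18398 CPM (log2 -0.72 ± 0.17, adjusted p = 0.0141). MT-ND1 had 801, 675 and 898 CPM in 6h_DMSO, above 293 to 486 CPM in G1_S_arrested (log2 1.02 ± 0.21, adjusted p = 0.00726). MT-ND2 had 969.8, 746 and 1090.2 CPM in 6h_DMSO, above 407 to 534 CPM in G1_S_arrested (log2 0.95 ± 0.20, adjusted p = 0.00582). None of these 3 genes had overlapping groups.

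MT-CO3 had 2067, 1537 and 2496 CPM in 6h_DMSO, against 740.3 to 1096 CPM in G1_S_arrested (log2 1.07 ± 0.26, adjusted p = 0.0325). MT-TT had 20.6, 18.5 and 24.1 CPM in 6h_DMSO, against 4.48 to 9.67 CPM in G1_S_arrested (log2 1.65 ± 0.35, adjusted p = 0.00653). MT-TM had 15, 13 and 11 counts in 6h_DMSO, against 4, 0 and 0 counts in G1_S_arrested (adjusted p = 0.041). These counts are few, and no fold is given for MT-TM, a methionine tRNA. In all, 6 genes were called (5 higher and 1 lower) in 6h_DMSO against G1_S_arrested, where 2.32% of all features were called (1.27% higher and 1.06% lower).

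With the replicate block 12 were called, 9 higher and 3 lower, where 7.71% of all features were (3.77% higher and 3.94% lower). Groups did not overlap for 9 genes that were higher and 3 that were lower, beside 8.7% and 8.62% of all features. MT-ND5 had 12343, 9174 and 14369 CPM in 6h_DMSO, against 4401 to 7407 CPM in G1_S_arrested, and passed only with it (log2 0.94 ± 0.28, adjusted p = 0.101; 1.81e-22 with the block). MT-ND3 had 1028, 718 and 1174 CPM in 6h_DMSO, against 284 to 502 CPM in G1_S_arrested, and also passed only with it (log2 1.16 ± 0.32, adjusted p = 0.0817; 5.07e-23 with the block). MT-TI (adjusted p = 0.00463) and MT-TQ (0.00747) were higher and MT-TS1 (0.00232) and MT-TD (0.0169) lower only with the block. MT-TD had 2, 0 and 1 counts in 6h_DMSO, against 1, 1 and 23 counts in G1_S_arrested, with arrested library C the only one above 2 counts.

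By contrast, MT-ND4 had 3916, 2971 and 4453 CPM in 6h_DMSO, against 4584, 2039 and 2189 CPM in G1_S_arrested, and the groups overlapped (log2 0.33 ± 0.49, adjusted p = 0.879; 0.712 with the block). MT-ND4L, MT-CO2, MT-ATP6 and MT-CYB also overlapped between these groups, with log2 values of 0.39 ± 0.54, 0.31 ± 0.45, 0.10 ± 0.57 and 0.24 ± 0.41. Leaving out 1 library at a time kept MT-ND1, MT-ND2 and MT-TT called in 5 of 6 fits each, with adjusted p of 0.0517 for MT-ND1 and 0.0524 for MT-ND2 without 6h_DMSO C, and 0.0654 for MT-TT without G1_S_arrested C. MT-ND6 was called in 2 of 6 (0.117 without G1_S_arrested A), and MT-CO3 (0.153 without 6h_DMSO C) and MT-TM (0.213 without G1_S_arrested C) in 1 of 6 each.

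Arrested cells were then compared with asynchronous cells. MT-ND6 had 18398, 16044 and 18398 CPM in G1_S_arrested, against 11757, 10768 and 9353 CPM in Cycling cells (log2 0.70 ± 0.17, adjusted p = 0.033; 2.59e-14 with the block), higher in 3 of 3 experiments. MT-TP, the proline tRNA at the end of the gene order, had 457, 835 and 468 CPM in G1_S_arrested, against 330.0, 257 and 330.1 CPM in Cycling cells (log2 0.88 ± 0.18, adjusted p = 0.00864). MT-ND1 had 486, 293 and 376 CPM in G1_S_arrested, against 733, 735 and 641 CPM in Cycling cells (log2 -0.89 ± 0.21, adjusted p = 0.0345). None of these pairs of groups overlapped.

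These 3 of 25 genes were called (2 higher and 1 lower) in G1_S_arrested against Cycling, where 1.03% of all features were called (0.6% higher and 0.429% lower). With the block 13 were called, 5 higher and 8 lower, where 5.64% of all features were (2.81% higher and 2.83% lower). Groups did not overlap for 5 genes that were higher and 8 that were lower, beside 8.94% and 7.72% of all features. The 5 higher ones were light-strand genes, MT-ND6, MT-TP, MT-TS1, MT-TY and MT-TC. The 8 lower ones were 7 heavy-strand genes, MT-ND1, MT-ND2, MT-ND3, MT-ND5, MT-CO3, MT-TI and MT-TM, and the light-strand MT-TQ.

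MT-TS1 had 2380.1, 1902 and 2414 CPM in G1_S_arrested, against 1828, 1436 and 1731 in Cycling cells (log2 0.39 ± 0.20; adjusted p = 0.00121 with the block only). MT-TY had 206, 215 and 212 CPM in G1_S_arrested, against 165, 138 and 127 in Cycling cells (log2 0.52 ± 0.16; adjusted p = 0.000534 with the block only). MT-TC, which abuts MT-TY, had 18.8, 30.3 and 16.4 CPM in G1_S_arrested, against 11.9, 11.1 and 6.49 in Cycling cells (log2 1.10 ± 0.30; adjusted p = 0.00872 with the block only). For the 3 light-strand tRNAs every arrested library lay above every cycling one.

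On the heavy strand, MT-ND5 had 7407, 4401 and 6598 CPM in G1_S_arrested, against 13727, 9896 and 12494 in Cycling cells (log2 -0.9996 ± 0.28, adjusted p = 0.123; 2.99e-24 with the block). MT-ND3 had 497, 284 and 502 CPM in G1_S_arrested, against 976, 726 and 954 in Cycling cells (log2 -1.08 ± 0.32, adjusted p = 0.182; 7.64e-21 with the block). MT-CO3 had 1029, 740.3 and 1096 CPM in G1_S_arrested, against 2093, 1371 and 1861 in Cycling cells (log2 -0.93 ± 0.26, adjusted p = 0.121; 1e-18 with the block). Each of these subunits of complex I or IV was lower in 3 of 3 experiments.

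MT-ND2 had 493, 407 and 534 CPM in G1_S_arrested, against 874, 727 and 777 in Cycling cells (log2 -0.76 ± 0.20, adjusted p = 0.0555; 2.3e-12 with the block). Among the tRNAs that were lower only with the block, MT-TQ had 21.0, 15.9 and 14.4 CPM in G1_S_arrested, against 35.2, 29.2 and 26.9 CPM in Cycling cells. MT-TI had 3.98, 9.03 and 7.96 CPM in G1_S_arrested, against 19.1, 16.6 and 15.8 CPM in Cycling cells. MT-TM had 4, 0 and 0 counts in G1_S_arrested, against 18, 5 and 6 counts in Cycling cells. The groups did not overlap for any of these 4 genes.

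Without Cycling B no gene was called by the fit without the block. Leaving out 1 library at a time kept MT-TP called in 4 of 6 fits (0.0903 without G1_S_arrested B) and MT-ND6 (0.189 without Cycling C) and MT-ND1 (0.227 without G1_S_arrested B) in 1 of 6 each. The log2 value of MT-TP, 0.88 over all libraries, was 0.61 without G1_S_arrested B, which held 835 CPM, and 0.49 with both libraries of experiment B left out (adjusted p = 0.0137). The arrested libraries are shared by the comparisons with 4h_DMSO, 6h_DMSO and Cycling cells, so these results are not independent of each other.

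**Figure D3:**
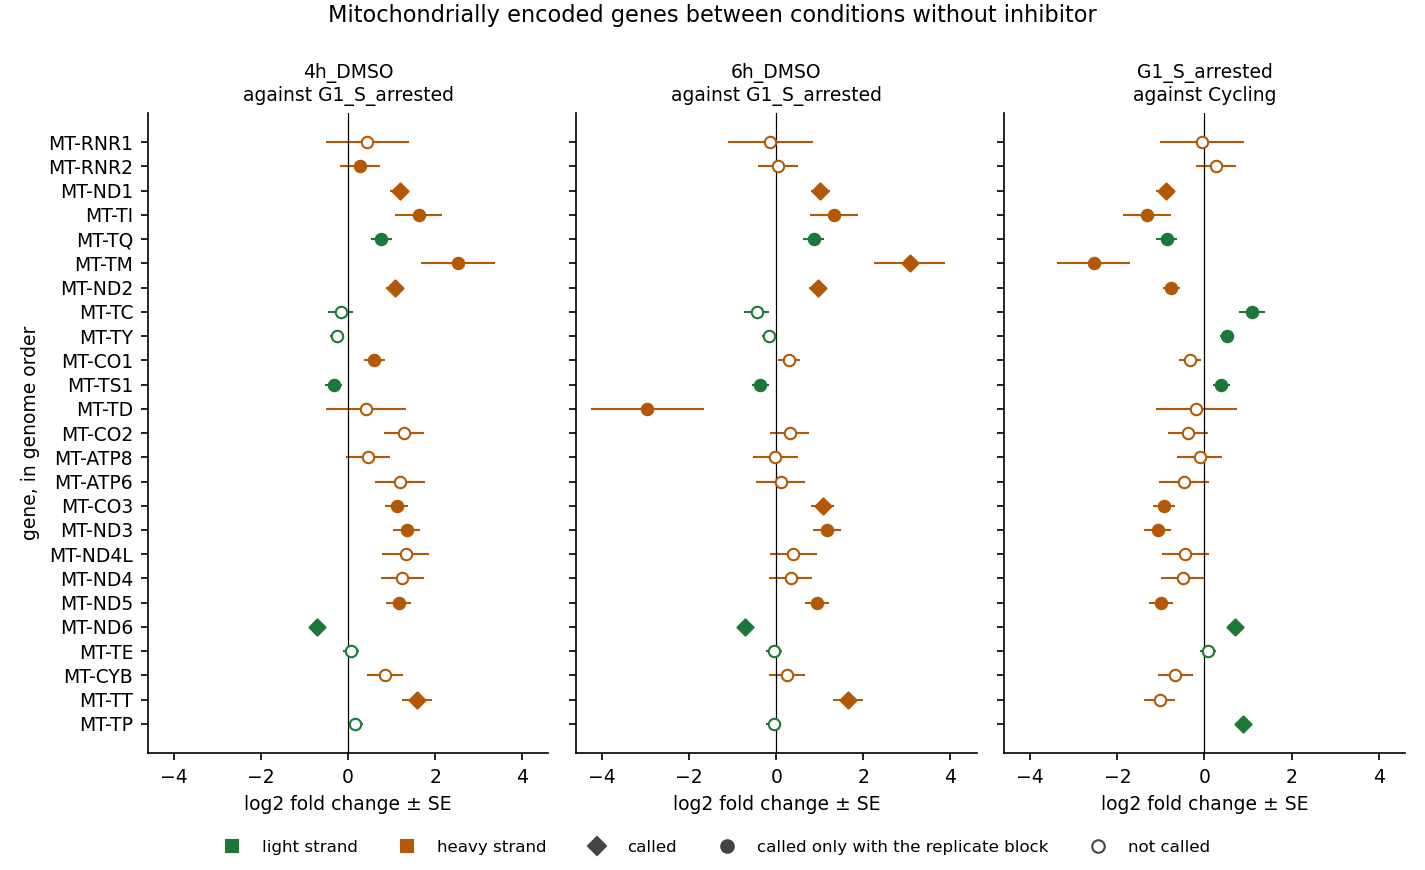
Log2 fold change with its standard error for the 25 tested genes in genome order, in 4h_DMSO against G1_S_arrested, 6h_DMSO against G1_S_arrested and G1_S_arrested against Cycling; colour marks the coding strand and filled symbols mark calls. MT-ND6 lies at -0.71, -0.72 and 0.70, opposite in sign to MT-ND1 at 1.18, 1.02 and -0.89.

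Summed by strand, light-strand genes held 50.3%, 60.5% and 57.2% of mitochondrial counts in G1_S_arrested, and 22.4% to 40.5% in the 14 libraries of the other conditions, with 95% Wilson intervals of at most 0.393 percentage points on either side. The share averaged 29.05 ± 6.37% in 4h_ATRi, 28.4 ± 6.58% in 4h_DMSO, 37.1 ± 4.91% in 6h_ATRi, 33.8 ± 5.23% in 6h_DMSO and 31.9 ± 1.23% in Cycling cells (SD, n = 3, and n = 2 for 6h_ATRi). These sums were not tested. The light-strand sum is mainly MT-ND6, with 412672 counts over all libraries, against 92013 on the 8 light-strand tRNA genes. Among tested light-strand tRNAs, MT-TS1, MT-TY and MT-TC averaged highest in G1_S_arrested, MT-TP and MT-TE did not, and MT-TQ was lowest there. The ratio of MT-ND5 to MT-ND6 counts was 0.403, 0.274 and 0.359 in G1_S_arrested, and 0.736 to 1.505 in the other libraries.

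Light-strand genes together held 19110.1 to 21583 CPM in G1_S_arrested and 11643 to 16027 CPM elsewhere, with no overlap. Heavy-strand genes held 12456 to 21319 CPM in G1_S_arrested and 20303 to 44957 CPM elsewhere, with an overlap. All mitochondrial genes together took 3.16% to 4.29% of counts in G1_S_arrested and 3.41% to 5.79% elsewhere, so the total overlapped.

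**Figure D4:**
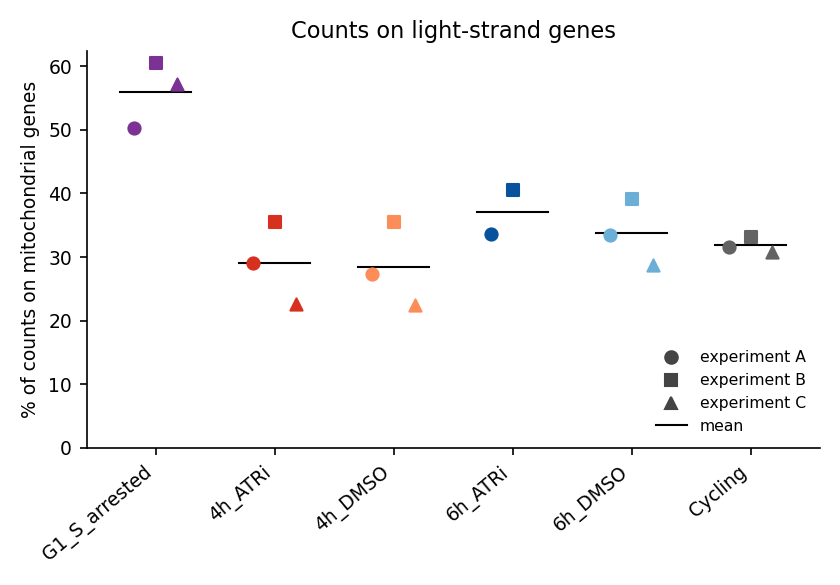
Percent of the counts on mitochondrial genes that lie on light-strand genes, per library and condition, with symbols for the experiment and a line at the mean. The 3 G1_S_arrested libraries lie at 50.3% to 60.5% and the other 14 at 22.4% to 40.5%. Most of the light-strand counts are those of MT-ND6.

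Between 4 h and 6 h of release without inhibitor, no mitochondrial gene passed the test, where 0.0814% of all features were called. By edgeR 1 of the 25 had an unadjusted p under 0.05 without the block and 6 with it, all on the heavy strand. Shares of all features under that unadjusted p are not given here. Counts of this kind, here and below, are therefore not read as particular to these genes. MT-ND4, which encodes a membrane subunit of complex I, had 3916, 2971 and 4453 CPM in 6h_DMSO, against 6809, 3867 and 9923 CPM in 4h_DMSO (log2 -0.91 ± 0.49, adjusted p = 1). The 6h_DMSO library was lower in 3 of 3 experiments, but the groups overlapped, and the 4h_DMSO values themselves spanned 3867 to 9923 CPM.

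MT-ND4L, read from the same mRNA as MT-ND4, had 371, 263 and 409.5 CPM in 6h_DMSO, against 541, 376 and 1017 CPM in 4h_DMSO (log2 -0.93 ± 0.53). MT-ATP6 had 969, 732 and 965 CPM in 6h_DMSO, against 2293, 797 and 2340.4 CPM in 4h_DMSO (log2 -1.09 ± 0.57). MT-CO2, a copper-binding subunit of complex IV, had 1172, 875 and 1239 CPM in 6h_DMSO, against 2206, 1064 and 2924 CPM in 4h_DMSO (log2 -0.97 ± 0.46). In each case the 6h_DMSO value was lower in A, B and C, and the groups overlapped.

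MT-ATP8 had 188, 89.8 and 190.5 CPM in 6h_DMSO, against 223, 97.1 and 310.3 CPM in 4h_DMSO (log2 -0.48 ± 0.51). MT-ND6 had 10109.8 to 11148 CPM in 6h_DMSO, against 10168 to 11013 CPM in 4h_DMSO (log2 -0.02 ± 0.16), and MT-CO3 had log2 -0.05 ± 0.25. With the block 1 gene was called, where 1.04% of all features were (0.392% lower): MT-TD, with 2, 0 and 1 counts in 6h_DMSO, against 11, 4 and 20 counts in 4h_DMSO (adjusted p = 0.00833). Groups did not overlap for MT-TD and MT-TP, both lower, beside 3.7% of all features in that direction, and for no gene in the other direction, beside 6.15%.

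**Figure D5:**
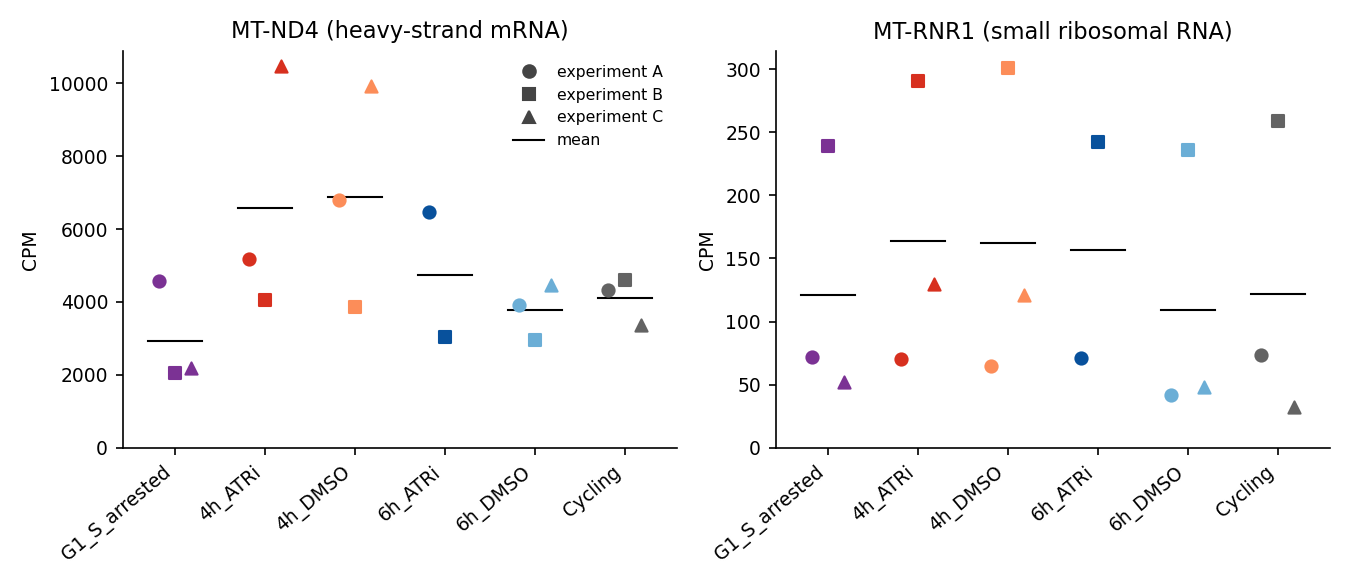
CPM of MT-ND4 (left) and MT-RNR1 (right) in each library by condition, with symbols for the experiment and a line at the mean. MT-ND4 reaches 9923 and 10466 CPM in experiment C at 4 h, and MT-RNR1 lies at 236 to 301 CPM in all 6 libraries of experiment B.

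The heavy-strand mRNAs fell into patterns across the 17 libraries that are given as a description, since the libraries differ in condition, experiment and depth and the sets were chosen after their values were seen. MT-ND1, MT-ND2, MT-ND3, MT-CO3 and MT-ND5 had Pearson r of 0.91 to 0.985 with each other on the log2 scale. MT-ND4, MT-ND4L, MT-CO2, MT-ATP6 and MT-CYB had r of 0.788 to 0.981 among themselves, and r between the 2 sets was 0.642 to 0.834. MT-ND6 had r of -0.775 to -0.057 with the 12 heavy-strand mRNAs.

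No difference with the ATR inhibitor was detected for the mitochondrial genes in late S phase. In 4h_ATRi against 4h_DMSO none of the 25 was called, with or without the block, where 0.311% and 1.75% of all features were. None had an unadjusted p under 0.05 by edgeR without the block, 1 had with it, and DESeq2 called none. The groups overlapped for all 25 genes, where 5.51% of all features were higher and 5.55% lower without overlap.

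MT-ND6 had 10208, 10409.7 and 10626 CPM in 4h_ATRi, against 11013, 10168 and 10598 CPM in 4h_DMSO (log2 -0.03 ± 0.16 (SE), adjusted p = 1). MT-ND5 had 13292, 9455 and 15087 CPM in 4h_ATRi, against 15166, 9204 and 15944 CPM in 4h_DMSO (log2 -0.11 ± 0.28, adjusted p = 1). Within experiments the log2 ratios of MT-ND5 were -0.19, 0.04 and -0.08, and those of MT-ND6 were -0.11, 0.03 and 0.00. Over the 25 genes the median log2 value was -0.04, beside -0.01 over all features, and the values ran from -0.35 (MT-TE) to 0.38 (MT-TD).

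For the low mRNAs, MT-ATP8 had 260.3, 122 and 299 CPM in 4h_ATRi, against 223, 97.1 and 310.3 CPM in 4h_DMSO, and MT-ND4L had 403, 403 and 1122 CPM in 4h_ATRi, against 541, 376 and 1017 CPM in 4h_DMSO. MT-TS1 had 2084, 1687 and 1532 CPM in 4h_ATRi, against 2135, 1617 and 1472 CPM in 4h_DMSO. MT-TP had 659, 698 and 631 CPM in 4h_ATRi, against 643, 655 and 617 CPM in 4h_DMSO. The groups overlapped for each of them, and standard errors over the 25 genes ran from 0.16 to 0.95 on the log2 scale. 

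In G2, with 2 inhibited libraries, again no gene was called in 6h_ATRi against 6h_DMSO, with or without the block, where 0.0074% and 0.533% of all features were. By edgeR 1 gene had an unadjusted p under 0.05 without the block and 5 with it, and DESeq2 called none. The share of all features under that unadjusted p is not given here, so nothing is read from these counts. MT-ND6 had 13112 and 11424 CPM in 6h_ATRi, against 11121, 11148 and 10109.8 CPM in 6h_DMSO (log2 0.23 ± 0.18, adjusted p = 1; 0.409 with the block). These groups did not overlap, as held for 2 of the 25 genes in that direction, beside 8.35% of all features.

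MT-ND5 had 11429.5 and 8414 CPM in 6h_ATRi, against 12343, 9174 and 14369 CPM in 6h_DMSO (log2 -0.22 ± 0.31). MT-ND4 had 6454 and 3037 CPM in 6h_ATRi, against 3916, 2971 and 4453 CPM in 6h_DMSO (log2 0.40 ± 0.54), and its log2 ratio was 0.72 in A and 0.03 in B. MT-CO2 and MT-ATP6 likewise differed in A, by 0.85 and 0.88, but little in B, at 0.06 and -0.10. MT-TT had 12.5 and 12.3 CPM in 6h_ATRi, against 20.6, 18.5 and 24.1 CPM in 6h_DMSO (log2 -0.72 ± 0.36, adjusted p = 1), and it was 1 of 5 genes whose inhibited libraries lay below all DMSO libraries, beside 11.1% of all features.

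The difference between the inhibitor responses at 6 h and 4 h was tested directly and called no mitochondrial gene, with or without the block, where 0% and 0.0444% of all features were called. No gene had an unadjusted p under 0.05 by edgeR without the block, 2 had with it, and DESeq2 called none. The value was 0.26 ± 0.25 for MT-ND6, -0.11 ± 0.41 for MT-ND5 and 0.48 ± 0.73 for MT-ND4 on the log2 scale.

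The authors' deposited table gives log2 fold changes of its own, and here its values are turned to the direction used above. For MT-ND6 the authors' deposited table has -0.68 in 4h_DMSO against G1_S_arrested (adjusted p = 5.97e-05), -0.69 in 6h_DMSO against G1_S_arrested and 0.69 in G1_S_arrested against Cycling. For MT-ND5 the authors' deposited table has 1.00 (adjusted p = 0.00172), 0.81 (0.0111) and -0.84 (0.0169). In the inhibitor comparisons the authors' deposited table gives no mitochondrial gene an adjusted p under 0.05.

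The nuclear genes that serve mitochondria were read against the shares of all features called, which without the block were 0.74%, 2.32% and 1.03% in 4h_DMSO against G1_S_arrested, 6h_DMSO against G1_S_arrested and G1_S_arrested against Cycling, and with it 4.77%, 7.71% and 5.64%. The lists are short beside these shares, and nothing particular to a list is read from its count. Of 5 tested genes for transcription of mitochondrial DNA, none was called in any comparison without the block. With the block, the elongation factor TEFM (opposite to ADAP2) was lower in 4h_DMSO (adjusted p = 0.0337) and in 6h_DMSO (0.0093) than in G1_S_arrested, by log2 -0.73 ± 0.27 and -0.82 ± 0.27. MTERF2, a mitochondrial DNA-binding protein, was lower in 4h_DMSO than in G1_S_arrested (log2 -0.96 ± 0.41; 0.0383 with the block). MTERF4, which serves ribosome assembly, was higher in 6h_ATRi than in 6h_DMSO (log2 0.79 ± 0.23, adjusted p = 0.629; 0.0331 with the block) and lower in 6h_DMSO than in G1_S_arrested (0.0206 with the block). MTERF4 overlaps SNED1 and MTERF2 overlaps TMEM263 on the opposite strand, so that their values are uncertain as to the gene.

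Of 17 tested genes for processing and decay of mitochondrial RNA, none was called without the block, and with it PRORP, the nuclease that cuts tRNA 5′ ends, was lower in G1_S_arrested than in Cycling cells (log2 -0.79 ± 0.26, adjusted p = 0.0089 with the block). Its highest members, PTCD1 at 447 CPM and SLIRP at 146 CPM, differed by 0.08 ± 0.17 and -0.17 ± 0.17 in that comparison. PRORP overlaps PPP2R3C, PTCD1 overlaps BUD31 and SLIRP overlaps SNW1 on the opposite strand, and their counts are uncertain as to the gene.

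Of 14 tested genes for maintenance of mitochondrial DNA, none was called without the block. With it, the DNA polymerase gene POLG was higher in G1_S_arrested than in Cycling cells (log2 0.58 ± 0.16, adjusted p = 0.0987; 7.68e-06 with the block) and lower in 6h_DMSO than in G1_S_arrested (log2 -0.48 ± 0.16; 0.000256 with the block). PRIMPOL, a primase-polymerase, was also higher in G1_S_arrested than in Cycling cells (log2 0.66 ± 0.22; 0.00125 with the block). It was lower with the block in 6h_DMSO than in G1_S_arrested (log2 -0.75 ± 0.22; 6.83e-05 with the block) and than in 4h_DMSO (log2 -0.61 ± 0.22; 0.0114 with the block). POLG overlaps FANCI and PRIMPOL overlaps CENPU on the opposite strand, so that both values are uncertain as to the gene. TWNK, the mitochondrial helicase, had log2 -0.21 ± 0.23 in G1_S_arrested against Cycling, and it overlaps MRPL43 on the opposite strand.

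Of 61 tested nuclear subunits of the respiratory chain and ATP synthase, 1 was called without the block: NDUFS7 of complex I, lower in 6h_DMSO than in G1_S_arrested (log2 -0.94 ± 0.26, adjusted p = 0.049), where 2.32% of all features were called. NDUFS7 overlaps AC005329.1 and AC005329.3 on the opposite strand, and with the block it was also lower in 4h_DMSO than in G1_S_arrested (log2 -0.91 ± 0.26; 0.00474 with the block). The list's median log2 value was 0.03 there, beside -0.01 over all features. In G1_S_arrested against Cycling the median was -0.04, and 1 of the 61, ATP5PB of ATP synthase (opposite to WDR77), was lower with the block (log2 -0.58 ± 0.19; 0.00319 with the block). ATP5PB (0.0278 with the block) and NDUFS6 of complex I (0.0346 with the block) were higher in 6h_DMSO than in G1_S_arrested, by log2 0.46 ± 0.19 and 1.30 ± 0.43. In 4h_ATRi against 4h_DMSO, NDUFB10 of complex I was lower with the block only (log2 -0.94 ± 0.32, adjusted p = 0.533; 0.0409 with the block). Of 52 tested mitochondrial ribosomal proteins none was called without the block. With it, MRPS18C (log2 -0.67 ± 0.20; 2.16e-05 with the block) and MRPL34 (log2 -0.72 ± 0.20; 0.00168 with the block) were lower in 4h_DMSO than in G1_S_arrested, and both were also lower in 6h_DMSO (3.15e-06 and 0.00314 with the block). MRPL34 was higher in G1_S_arrested than in Cycling cells with the block only (log2 0.52 ± 0.20; 0.0345 with the block). MRPS18C overlaps ABRAXAS1 and MRPL34 overlaps ABHD8 on the opposite strand. MRPS25, the highest of the list at 164 CPM, had log2 -0.08 ± 0.17 in G1_S_arrested against Cycling.

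Nuclear copies of mitochondrial genes, which could take some of the same reads, were mostly empty: 9 of 399 passed the filter. MTND6P4, a copy of MT-ND6, averaged 254 CPM and was lower in 4h_DMSO than in G1_S_arrested (log2 -0.67 ± 0.16, adjusted p = 0.0332) and in 6h_DMSO (log2 -0.74 ± 0.16, adjusted p = 0.00721), as MT-ND6 was. It was higher in G1_S_arrested than in Cycling cells with the block only (log2 0.58 ± 0.16, adjusted p = 0.0769; 2.06e-05 with the block). MTCO3P12, a copy that holds MT-CO3 sequence, averaged 95.6 CPM and was higher in 4h_DMSO with the block only (log2 0.58 ± 0.22, adjusted p = 0.00283 with the block) and in 6h_DMSO (0.0281 with the block), and MTND4P12, a copy of MT-ND4 at 14.2 CPM, was higher in 4h_DMSO (log2 1.09 ± 0.33, adjusted p = 0.0128 with the block). How the authors' counting treated reads that match both a copy and its parent is not given in the sources used here.

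The nuclear features most like the summed mitochondrial mRNAs across the 17 libraries were IQCK (Pearson r = 0.858 on the log2 scale), MBNL1 (0.836), the ID ENSG00000225410 (0.833), KRT8 (0.826) and SH3BP5-AS1 (0.8), of 7085 features with at least 10 CPM on average. These are given as a description, since all share the libraries' experiments and depth.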

How the data were processed

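RNA of RPE-1 cells was extracted with Trizol and made into strand-keeping mRNA libraries, per the labels' protocols. TopHat, HTSeq, DESeq2 and the build GRCh37 are named, without versions, in the submitters' processing notes. The authors deposited whole read counts per Ensembl gene ID for 17 libraries, not normalized. The authors also deposited log2 fold changes and adjusted p-values of their own comparisons, and columns that ran the other way were turned here. Symbols came from the name table, which matched 55528 of 60252 IDs. Strand, gene length, gene order and the overlaps between genes came from positions in GENCODE 29 (GRCh38).

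Counts were fitted with edgeR 4.0.16 in R 4.3.3 (quasi-likelihood test, TMM factors, filter at a minimum count of 10 and a total of 15), with all 17 libraries in 1 fit, condition as the only term and Benjamini-Hochberg adjustment over 13510 features. A call was an adjusted p under 0.05, two-sided. The procedure was tested on simulated counts without an effect of experiment, so that test does not cover differences between experiments. In the 6 pairs of conditions compared, deviations of same-lettered libraries correlated at 0.138 to 0.534, although in A a differently lettered library correlated more for 4h_DMSO with G1_S_arrested (0.262 against 0.203) and 6h_DMSO with G1_S_arrested (0.227 against 0.184). All were over 0.1, so fits with the experiment as a replicate block are given where they change a result. Alternatives were DESeq2 1.42.0, its size factors, no TMM factors, filters, mitochondrial genes left out of the totals, and 1 library or experiment B left out. The labels speak of independent experiments, but p-values measure only the spread between these libraries, and intervals cover counting error only.

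The members and the lists of nuclear genes were chosen with earlier results of these data known. All 37 genes are accounted for. Values per library are given for mitochondrial genes that a result turns on: the highest and lowest mRNAs, an rRNA, the leading tRNAs and called genes. From each list, fold changes are given for genes called in a comparison, and for the highest by mean CPM.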

Additional observations from a re-analysis of the deposited data

How the results depend on the processing

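Without the replicate block, the members called in 4h_DMSO against G1_S_arrested numbered 4. They numbered 13 with the replicate block, 7 with no filter, 7 by DESeq2, 13 with experiment B left out and 14 with B left out and the block. In 6h_DMSO against G1_S_arrested they numbered 6, against 12 with the block, 10 with no filter, 11 without B and 13 without B with the block. In G1_S_arrested against Cycling they numbered 3, against 13 with the block, 5 without TMM factors, 8 with no filter, 7 by DESeq2, 10 without B and 10 without B with the block. In 6h_DMSO against 4h_DMSO they numbered 0, against 1 with no filter, 1 with the block, and 3 without B with or without the block. The cause was not tested. Apart from the replicate block, shares of all features called under these alternatives are not given here. No rise in these counts is therefore read as particular to the mitochondrial genes. The fit without the block tested 13510 features, against 30982 with no filter and 13328 without B. Leaving out 1 library gave 1 to 6, 1 to 5 and 0 to 3 calls in the 3 comparisons with G1_S_arrested. In that way the log2 value of MT-RNR2 in 4h_DMSO against G1_S_arrested ran from -0.0027 without 4h_DMSO B to 0.79 without G1_S_arrested B. The inhibitor comparisons called 0 under each alternative run. MT-ND6 averaged 53.0% of mitochondrial mRNA counts in G1_S_arrested, 25.1% in 4h_ATRi, 24.6% in 4h_DMSO, 33.4% in 6h_ATRi, 29.7% in 6h_DMSO and 28.3% in Cycling. Leaving MT-ND5 out of the total must raise this percent. It then averaged 64.6% in G1_S_arrested, 35.5% in 4h_ATRi, 35.0% in 4h_DMSO, 45.6% in 6h_ATRi, 43.6% in 6h_DMSO and 41.6% in Cycling. DESeq2's size factors in edgeR, and totals without the mitochondrial genes, changed 0 of 39 results. At these depths, a tRNA gene under about 1.27 to 1.71 CPM could not be told from 0 within a single library. The 10 tRNA genes without counts were at 0 in all 17 libraries.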
